A study of Homo sapiens with 18 samples.

Results

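The integrated stress response effectors described here are 10 genes, ATF4, ATF3, ATF5, DDIT3, DDIT4, TRIB3, CHAC1, SESN2, PPP1R15A and NUPR1. They were taken by symbol from a count table of 56303 genes, and 10 of 10 were found, each in 1 row. RNA sequencing covered 18 libraries of 2 human cancer cell lines labelled as ovarian, A2780 and SKOV3. Each line was given DMSO, the solvent, or daphnetin, a plant coumarin, at 20 or 40 mg/L, with 3 libraries in each of the 6 groups. The labels call every library WT and name no engineered allele, and the treatment time is not given in the sources used here. The labels list different media and serum contents for the 2 lines, so a difference between the lines cannot be told apart from a difference in medium. The series set out to find transcripts and pathways that change when daphnetin kills these cells or slows their movement. The labels do not say whether the replicates came from separate cultures, so every p-value here measures the spread between libraries, which may be technical.

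The integrated stress response is a shared answer of cells to amino acid shortage, misfolded protein in the endoplasmic reticulum, heme shortage, viral RNA and mitochondrial faults. Sensor kinases phosphorylate the translation factor eIF2, general protein synthesis slows, and a few mRNAs with upstream reading frames, ATF4 among them, are translated more. ATF4 then switches on genes for amino acid supply, redox balance and, when stress lasts, cell death, and PPP1R15A brings a phosphatase back to eIF2. Because ATF4 is set largely by translation, its mRNA level and its protein level can differ, and only mRNA was measured here.

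Libraries held 30016475 to 37220879 counts in A2780 and 35105152 to 44132931 in SKOV3. Levels are CPM, counts relative to library size, scaled by TMM over all 18 libraries and given per library or as mean ± SD with n = 3. Mitochondrial genes held 10.6% to 16.51% of the counts in A2780 and 4.36% to 5.23% in SKOV3, and within A2780 they were lowest in 20 mg/L replicate 2 and 40 mg/L replicate 1. ERBB2, which SKOV3 is known to carry in extra copies, was at 64.6 ± 0.812 CPM in A2780 and 2757 ± 69 CPM in SKOV3 under DMSO. Of 10 epithelial and ovarian carcinoma markers, 8 averaged under 1 CPM in A2780, among them the Müllerian factor PAX8 at 0.221 ± 0.0218 CPM and WT1 at 0 in its DMSO libraries. SKOV3 had 9 of the 10 at 1 CPM or more. Their summed level in SKOV3 was 2133 to 2160 CPM under DMSO, 1687 to 1818 at 20 mg/L and 1370 to 1428 at 40 mg/L, and in A2780 it was 5.12 to 9.84 CPM over all groups. The SKOV3 sum was largely KRT8, at 1115 ± 10.2 CPM under DMSO and 659 ± 54.5 CPM at 40 mg/L, while PAX8 was at 184 ± 13.8 and 342 ± 46.4 CPM and MSLN at 11.6 ± 0.593 and 12.9 ± 0.586 CPM. The 11 leukocyte, fibroblast and endothelial markers summed in A2780 to 567 to 645 CPM under DMSO, 442 to 466 at 20 mg/L and 342 to 395 at 40 mg/L, mostly COL3A1. In SKOV3 that sum, mostly COL1A1, was 384 to 421, 334 to 359 and 305 to 329 CPM. The leukocyte marker PTPRC was at or near 0 in every group. What part these shifts play in the results below was not tested, and in such bulk libraries fewer cells of a kind and less RNA per cell cannot be told apart.

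With daphnetin at 40 mg/L most of the 10 effectors were higher than in DMSO, 7 of them in A2780 and 8 in SKOV3, with ATF3 11.6-fold up in SKOV3 and PPP1R15A 2.74-fold and 3.98-fold up in A2780 and SKOV3. DDIT4 was lower in both lines. A gene is called where edgeR's quasi-likelihood F test gave a Benjamini-Hochberg adjusted p under 0.05 over all genes tested. In A2780 at 20 mg/L against DMSO, 6 of 10 were called, 4 higher and 2 lower, where 36.9% of all genes tested were called and 18.1% were higher. The 40 mg/L dose called 8 of 10 in A2780, 7 higher and 1 lower, beside 36.9% of all genes called and 17.7% higher. Between 40 and 20 mg/L in A2780, 5 of 10 were called, all higher at 40 mg/L, beside 14.6% of all genes called and 6.71% higher.

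SKOV3 at 20 mg/L had 6 of 10 called, all higher, where 10.1% of all genes were called and 5.16% were higher. With 40 mg/L all 10 were called, 8 higher and 2 lower, where 52.1% of all genes were called and 26.4% were higher. The step from 20 to 40 mg/L also called all 10, 8 higher and 2 lower, beside 47.4% of all genes called and 23.2% higher. The median log2 fold change of the 10 against DMSO was 0.21 and 0.78 at 20 and 40 mg/L in A2780 and 0.38 and 1.27 in SKOV3. The same medians over all genes tested lay between -0.01 and 0.01. A change of at least 2-fold at 40 mg/L was called for 5 of 10 effectors in A2780, beside 4.29% of all genes, and for 5 of 10 in SKOV3, beside 10.4% of all genes. Within a line the treated groups share their DMSO libraries, so the comparisons of 20 and 40 mg/L with DMSO are not independent.

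**Figure D1:**
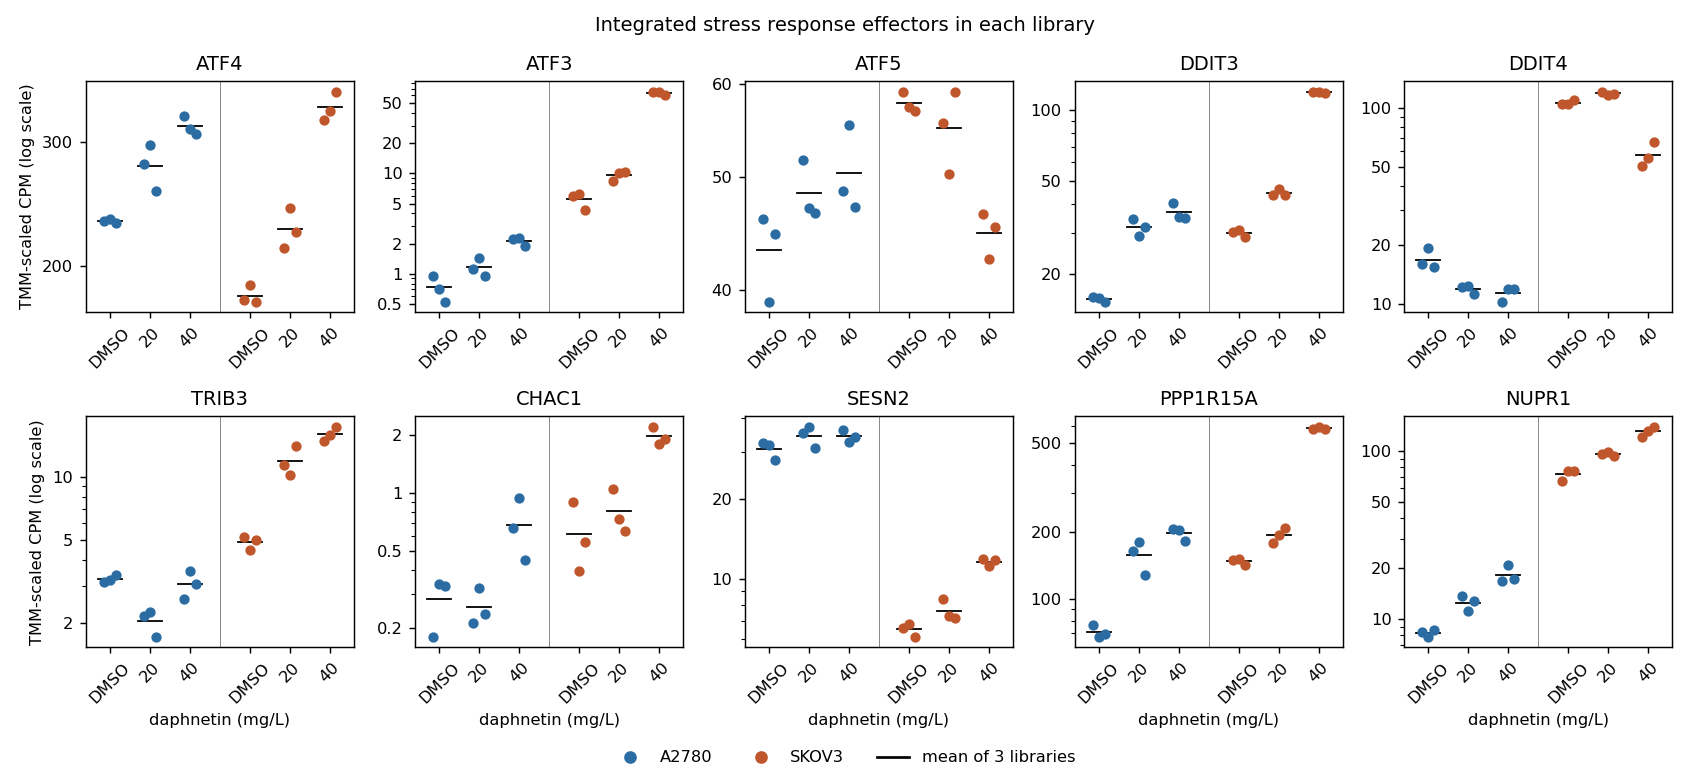
TMM-scaled CPM on a log axis of each effector in each of the 18 libraries, by line (blue A2780, orange SKOV3) and daphnetin dose in mg/L, with a black bar at the mean of 3 libraries. ATF3 in SKOV3 goes from 5.54 to 63.6 CPM between DMSO and 40 mg/L, and DDIT4 and SESN2 differ between the lines at every dose.

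Per kilobase of annotated exon, ATF4 was the highest of the 10 in 5 of the 6 groups. It ran from 72.4 ± 2.15 CPM per kb in SKOV3 under DMSO to 126 ± 3.84 in A2780 at 40 mg/L. The length used joins all annotated exons of a gene, such as 5674 bases for NUPR1, and can exceed that of the mRNA. The order given here therefore depends on the annotation and is not an order of mRNA molecules. In SKOV3 at 40 mg/L PPP1R15A led instead, at 189 ± 3 CPM per kb against 134 ± 6.42 for ATF4 and 93.6 ± 0.82 for DDIT3. CHAC1 was the lowest in all 6 groups, between 0.125 ± 0.0277 CPM per kb in A2780 at 20 mg/L and 0.957 ± 0.106 in SKOV3 at 40 mg/L. The order under DMSO in A2780 was ATF4, PPP1R15A, ATF5, DDIT3, SESN2, DDIT4, NUPR1, TRIB3, ATF3 and CHAC1. There the SD ranges of SESN2 and DDIT4, and those of ATF3 and CHAC1, overlapped. In SKOV3 the DMSO order was ATF4, DDIT4, PPP1R15A, DDIT3, ATF5, NUPR1, SESN2, TRIB3, ATF3 and CHAC1, with overlapping SD ranges of TRIB3 and ATF3. At 20 mg/L in SKOV3 the SD ranges of PPP1R15A and DDIT4, of ATF5 and NUPR1, and of ATF3 and SESN2 overlapped. At 40 mg/L in SKOV3 those of DDIT4 and NUPR1, and of ATF3 and ATF5, did.

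ATF4, the basic leucine zipper factor at the head of the response, lies on chromosome 22 (GRCh38, 39519695 to 39522685, plus strand). Its level in the A2780 libraries was 232, 233 and 230 CPM under DMSO, 279, 297 and 256 CPM at 20 mg/L, and 327, 313 and 308 CPM at 40 mg/L. In SKOV3 it was 179, 188 and 178 CPM under DMSO, 212, 242 and 224 CPM at 20 mg/L, and 323, 332 and 354 CPM at 40 mg/L. Both treated groups lay above DMSO without overlap in each line. The mRNA rose 1.19-fold at 20 mg/L (log2 0.25, SE 0.06, adjusted p = 0.00269) and 1.35-fold at 40 mg/L in A2780 (log2 0.43, SE 0.06, adjusted p = 4.03e-06). In SKOV3 it rose 1.24-fold (log2 0.31, SE 0.05, adjusted p = 8.90e-05) and 1.86-fold (log2 0.89, SE 0.05, adjusted p = 1.02e-15). The step from 20 to 40 mg/L was called in SKOV3, at log2 0.58, and missed the threshold in A2780, at log2 0.18 with adjusted p = 0.0598 and a 95% interval of 0.05 to 0.31. That A2780 step had an adjusted p of 0.0184 without 20 mg/L replicate 2 and 0.0154 in DESeq2. The 4 ATF4 pseudogenes in the table reached at most 4.74 CPM in any library.

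ATF3, a stress-induced factor of the same family that acts downstream of ATF4, had the widest range of the 10. Its gene is on chromosome 1 (212565334 to 212620777, plus strand). A2780 libraries held 0.961, 0.708 and 0.527 CPM under DMSO, 1.12, 1.43 and 0.945 CPM at 20 mg/L, and 2.21, 2.28 and 1.9 CPM at 40 mg/L. In SKOV3 the levels were 6.03, 6.26 and 4.32 CPM under DMSO, 8.49, 10 and 10.3 CPM at 20 mg/L, and 65.4, 65.1 and 60.3 CPM at 40 mg/L. The 20 mg/L libraries overlapped with DMSO in A2780, while in SKOV3 each dose lay wholly above the one before. ATF3 rose 11.6-fold at 40 mg/L in SKOV3 (log2 3.53, SE 0.09, adjusted p = 1.11e-25), most of it between 20 and 40 mg/L (log2 2.74, SE 0.09), and 1.73-fold at 20 mg/L (adjusted p = 7.59e-07). In A2780 it rose 2.85-fold at 40 mg/L (log2 1.51, SE 0.26, adjusted p = 3.39e-05). Its log2 value of 0.65 at 20 mg/L in A2780 was not called (SE 0.28, adjusted p = 0.0676), but was without DMSO replicate 1 (0.0296) or 20 mg/L replicate 3 (0.0494). The A2780 step from 20 to 40 mg/L was called at log2 0.86 (adjusted p = 0.0163). That call was lost without 20 mg/L replicate 1 (0.063) or replicate 3 (0.0979), or 40 mg/L replicate 2 (0.0755).

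DDIT3, which encodes CHOP, a C/EBP family factor tied to cell death under lasting stress, lies on chromosome 12 (57516588 to 57520517, minus strand). Libraries of A2780 had 16.1, 15.9 and 15.3 CPM under DMSO, 34.5, 29.1 and 31.8 CPM at 20 mg/L, and 40.4, 35.2 and 34.8 CPM at 40 mg/L. SKOV3 libraries had 30.2, 31 and 28.9 CPM, then 43.6, 46.2 and 43.5 CPM, then 120, 119 and 118 CPM. No treated library of either line overlapped with its DMSO libraries. DDIT3 rose 2.01-fold and 2.3-fold at 20 and 40 mg/L in A2780 (log2 1.00 and 1.20, SE 0.08 for both, adjusted p = 1.18e-10 and 3.39e-12). In SKOV3 it rose 1.48-fold (log2 0.56, SE 0.06, adjusted p = 2.63e-09) and 3.96-fold (log2 1.99, SE 0.05, adjusted p = 5.01e-25). The dose step was called in SKOV3 (log2 1.42) and not in A2780 (log2 0.20, adjusted p = 0.0965). On the opposite strand, MARS, a methionyl-tRNA synthetase gene, overlaps 28.0% of the DDIT3 exon bases. MARS had smaller log2 changes, 0.38 and 0.54 in A2780 and 0.13 and 0.92 in SKOV3 at 20 and 40 mg/L, the value of 0.13 not called. The strand setting of the counting is not given, so reads in the shared bases cannot be told apart.

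ATF5, a relative of ATF4 that is also under translational control and serves the mitochondrial stress response, went in opposite directions in the 2 lines. The gene is on chromosome 19 (49928702 to 49933935, plus strand). Levels in A2780 were 46, 39.1 and 44.7 CPM under DMSO, 51.7, 47 and 46.6 CPM at 20 mg/L, and 48.6, 55.3 and 47.1 CPM at 40 mg/L. SKOV3 had 59, 57.3 and 56.9 CPM under DMSO, 55.6, 50.3 and 59.1 CPM at 20 mg/L, and 46.5, 42.5 and 45.3 CPM at 40 mg/L. All treated A2780 libraries were above DMSO, by a small margin, and the SKOV3 libraries at 40 mg/L were all below. ATF5 fell 1.28-fold at 40 mg/L in SKOV3 (log2 -0.36, SE 0.06, adjusted p = 4.26e-06) and rose 1.15-fold at 40 mg/L in A2780 (log2 0.20, SE 0.08, adjusted p = 0.0399). That A2780 call was lost when DMSO replicate 2 (0.182) or 1 of the 40 mg/L libraries, replicate 1 (0.052) or replicate 2 (0.274), was left out, and with replicate number as a block (0.0528). At 20 mg/L it was called in neither line, with log2 0.16 in A2780 and -0.07 in SKOV3. NUP62, a nuclear pore gene on the opposite strand, overlaps 626 of the 2954 ATF5 exon bases and had log2 -0.31 at 40 mg/L in SKOV3 (adjusted p = 3.61e-05). IL4I1 overlaps 75 and had log2 -0.43 there. Reads of these pairs in the shared bases cannot be told apart.

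NUPR1, a small chromatin-associated stress protein, rose at each dose in both lines. It lies on chromosome 16 (28532708 to 28539174, minus strand). A2780 libraries held 8.35, 7.81 and 8.56 CPM under DMSO, 13.7, 11.1 and 12.7 CPM at 20 mg/L, and 16.9, 20.9 and 17.3 CPM at 40 mg/L. In SKOV3 the values were 66.6, 76.5 and 75.8 CPM, then 96.3, 98.3 and 93.5 CPM, then 122, 131 and 140 CPM. No library of any dose overlapped with another dose of its line. NUPR1 rose 1.51-fold and 2.21-fold at 20 and 40 mg/L in A2780 (log2 0.59 and 1.14, SE 0.11 for both, adjusted p = 7.30e-05 and 1.16e-09). In SKOV3 it rose 1.31-fold and 1.8-fold (log2 0.39 and 0.85, SE 0.06 for both, adjusted p = 7.49e-06 and 2.44e-14). The step from 20 to 40 mg/L was called in both lines, at log2 0.55 and 0.46.

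PPP1R15A, also known as GADD34, recruits protein phosphatase 1 to eIF2 and so ends the block on translation. The gene is on chromosome 19 (48872392 to 48876057, plus strand). A2780 libraries had 76.1, 67.6 and 69.5 CPM under DMSO, 165, 181 and 128 CPM at 20 mg/L, and 206, 205 and 182 CPM at 40 mg/L. SKOV3 libraries had 150, 151 and 142 CPM under DMSO, 179, 194 and 209 CPM at 20 mg/L, and 581, 595 and 578 CPM at 40 mg/L. Every dose lay above the one before without overlap in both lines. PPP1R15A rose 2.21-fold and 2.74-fold at 20 and 40 mg/L in A2780 (log2 1.14 and 1.46, SE 0.10 for both, adjusted p = 7.68e-08 and 3.64e-09). In SKOV3 it rose 1.31-fold (log2 0.39, SE 0.05, adjusted p = 2.30e-06) and 3.98-fold (log2 1.99, SE 0.06, adjusted p = 5.24e-25). The A2780 step from 20 to 40 mg/L was small (log2 0.31, adjusted p = 0.0375). It was not called when 20 mg/L replicate 3 (0.135) or 1 of the 40 mg/L libraries, replicate 1 (0.138) or replicate 2 (0.122), was left out, nor in a fit of only the groups compared (0.0686). In SKOV3 that step was log2 1.60 (SE 0.05).

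TRIB3, a pseudokinase induced by ATF4 and CHOP that dampens ATF4 activity and AKT signalling, differed most between the lines at 20 mg/L. It lies on chromosome 20 (362835 to 397559, plus strand). In A2780 the levels were 3.12, 3.2 and 3.39 CPM under DMSO, 2.15, 2.25 and 1.71 CPM at 20 mg/L, and 2.59, 3.53 and 3.05 CPM at 40 mg/L. SKOV3 had 5.14, 4.46 and 4.98 CPM, then 11.4, 10.2 and 14 CPM, then 14.8, 15.8 and 17.4 CPM. The 20 mg/L libraries were the lowest in A2780, with no overlap with DMSO, and in SKOV3 each dose lay above the one before. TRIB3 fell 1.59-fold at 20 mg/L in A2780 (log2 -0.67, SE 0.18, adjusted p = 0.00392), and at 40 mg/L its log2 value was -0.10 (adjusted p = 0.704, 95% interval -0.45 to 0.26). SKOV3 had a rise of 2.43-fold (log2 1.28, SE 0.11, adjusted p = 1.54e-10) and of 3.29-fold (log2 1.72, SE 0.11, adjusted p = 2.94e-15). Between 20 and 40 mg/L the log2 step was 0.58 in A2780 (adjusted p = 0.0307) and 0.44 in SKOV3 (adjusted p = 0.000376). The A2780 step was not called without 20 mg/L replicate 1 (0.0643) or replicate 3 (0.156), or without 40 mg/L replicate 2 (0.177) or replicate 3 (0.0757).

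DDIT4, also called REDD1, restrains mTORC1 signalling and is a target of ATF4, hypoxia factors and glucocorticoids. It fell where most of the 10 rose. The gene is on chromosome 10 (72273920 to 72276036, plus strand). A2780 libraries held 15.9, 19.1 and 15.3 CPM under DMSO, 12.2, 12.3 and 11.2 CPM at 20 mg/L, and 10.2, 11.8 and 11.9 CPM at 40 mg/L. In SKOV3 there were 105, 104 and 109 CPM under DMSO, 121, 116 and 118 CPM at 20 mg/L, and 50.4, 55.3 and 66.9 CPM at 40 mg/L. Both doses were below DMSO in A2780, whereas in SKOV3 the 20 mg/L libraries were the highest and the 40 mg/L libraries the lowest. DDIT4 was 1.42-fold and 1.5-fold lower at 20 and 40 mg/L in A2780 (log2 -0.51 and -0.59, SE 0.10 for both, adjusted p = 0.000206 and 3.34e-05). In SKOV3 at 40 mg/L it was 1.84-fold lower (log2 -0.88, SE 0.07, adjusted p = 3.58e-13). Its log2 value of 0.16 at 20 mg/L in SKOV3 was not called (adjusted p = 0.131), but was in a fit of only those groups (0.02).

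The non-coding gene RP11-442H21.2 on the opposite strand overlaps 41.2% of the DDIT4 exon bases. Its levels were 14.2 ± 1.61, 10 ± 0.716 and 9.51 ± 0.445 CPM in A2780 and 92.3 ± 2.57, 101 ± 2.55 and 48.9 ± 7.44 CPM in SKOV3, in order of dose. Its log2 changes at 20 and 40 mg/L, -0.51 and -0.60 in A2780 and 0.13 and -0.91 in SKOV3, lay close to the DDIT4 values of -0.51, -0.59, 0.16 and -0.88. Reads of the pair cannot be told apart without the strand setting.

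**Figure D2:**
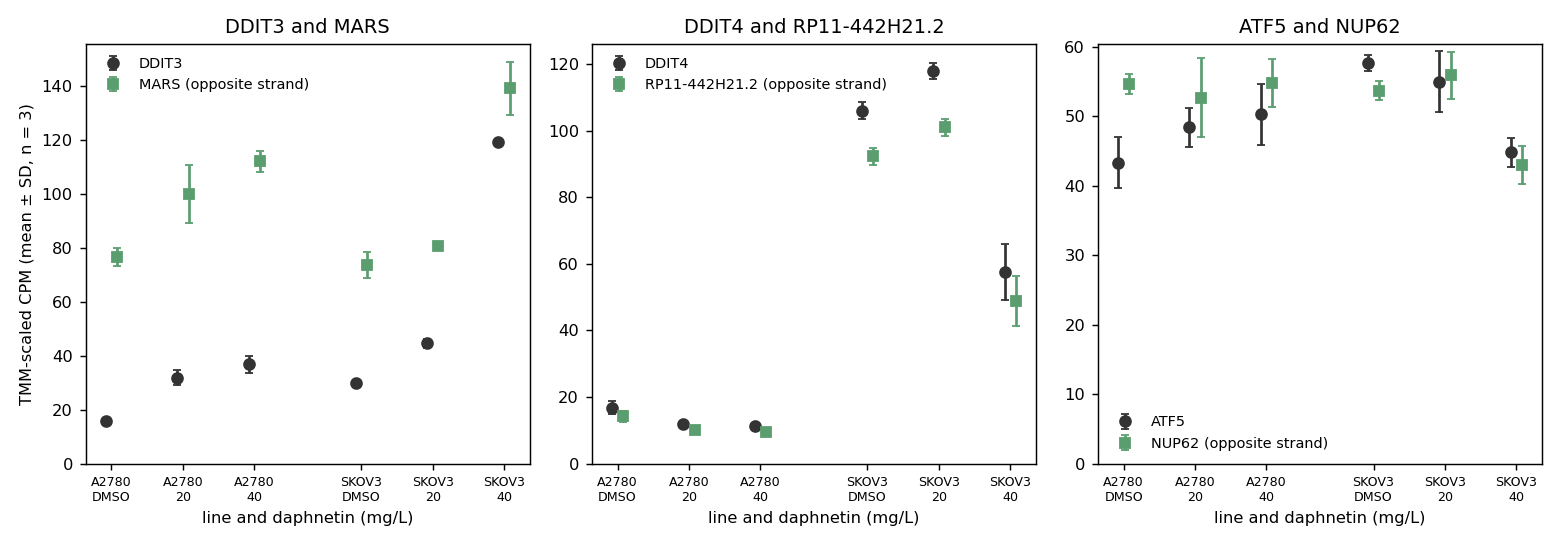
Mean TMM-scaled CPM (error bars SD, n = 3) of DDIT3, DDIT4 and ATF5 (black circles) and of the gene on the opposite strand with the largest exon overlap (green squares), by line and daphnetin dose in mg/L. DDIT4 and RP11-442H21.2 follow each other in all 6 groups, while MARS is above DDIT3 throughout and changes less.

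SESN2, an antioxidant protein and leucine sensor that also restrains mTORC1, was high in A2780 and low in SKOV3. It lies on chromosome 1 (28259527 to 28282491, plus strand). A2780 had 32.4, 31.8 and 28 CPM under DMSO, 35.1, 37.2 and 31 CPM at 20 mg/L, and 36, 32.7 and 34.1 CPM at 40 mg/L. SKOV3 had 6.57, 6.83 and 6.09 CPM under DMSO, 8.42, 7.26 and 7.19 CPM at 20 mg/L, and 11.9, 11.2 and 11.8 CPM at 40 mg/L. In SKOV3 the groups did not overlap, while in A2780 the 20 mg/L libraries overlapped with DMSO and those at 40 mg/L were above it by a small margin. SESN2 rose 1.8-fold at 40 mg/L in SKOV3 (log2 0.85, SE 0.10, adjusted p = 7.46e-09). Its log2 values of 0.15 and 0.14 in A2780 and of 0.23 at 20 mg/L in SKOV3 were not called (adjusted p = 0.133, 0.185 and 0.171). The 20 mg/L value in A2780 was called without 20 mg/L replicate 3 (0.0451). The upper 95% limits for A2780 were log2 0.32 and 0.30.

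CHAC1, a cytosolic enzyme that breaks down glutathione, was scarce, with 6 to 99 counts in a library. Its gene is on chromosome 15 (40952962 to 40956519, plus strand). In A2780 the levels were 0.18, 0.34 and 0.329 CPM under DMSO, 0.213, 0.321 and 0.236 CPM at 20 mg/L, and 0.662, 0.939 and 0.448 CPM at 40 mg/L. In SKOV3 they were 0.895, 0.395 and 0.558 CPM, then 1.05, 0.731 and 0.633 CPM, then 2.21, 1.8 and 1.9 CPM. The 40 mg/L libraries were above all others of their line, and those at 20 mg/L overlapped with DMSO in both lines. CHAC1 rose 3.16-fold at 40 mg/L in SKOV3 (log2 1.66, SE 0.27, adjusted p = 3.14e-06) and 2.37-fold in A2780 (log2 1.24, SE 0.44, adjusted p = 0.0276). At 20 mg/L the log2 values were -0.15 in A2780 (95% interval -1.18 to 0.87, adjusted p = 0.849) and 0.37 in SKOV3 (95% interval -0.24 to 0.97, adjusted p = 0.523). The A2780 call at 40 mg/L was lost when DMSO replicate 1 (0.115) or 1 of the 40 mg/L libraries, replicate 1 (0.0562) or replicate 2 (0.184), was left out, without both libraries of lowest mitochondrial share (0.0544) and in DESeq2 (0.0619). The A2780 step from 20 to 40 mg/L (log2 1.39, adjusted p = 0.0327) was lost without 20 mg/L replicate 1 (0.118) or replicate 3 (0.112), or without 40 mg/L replicate 1 (0.0661) or replicate 2 (0.218). It was also lost without both libraries of lowest mitochondrial share (0.0606), and DESeq2 gave it no adjusted p.

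**Figure D3:**
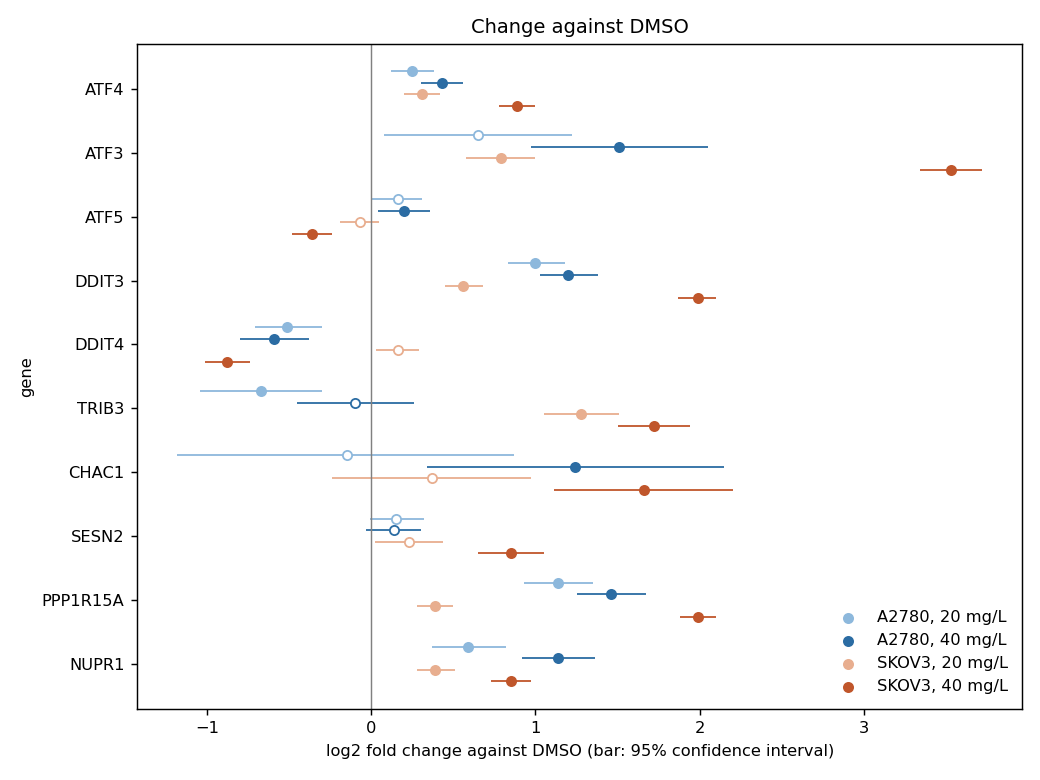
Log2 fold change against DMSO of each effector (x axis) at 20 and 40 mg/L daphnetin in A2780 and SKOV3, with 95% confidence intervals, filled where the adjusted p is under 0.05. ATF3, DDIT3 and PPP1R15A lie at 1.99 or above in SKOV3 at 40 mg/L, and DDIT4 lies below 0 in 3 of the 4 comparisons.

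Promoter sequence of the effectors was read from RefSeq windows of GRCh38.p14, 250 bases before to 50 after a start, for 9 of the 10 genes. Stretches are shown for 3 genes that rose, as their windows hold motifs of stress factors, and for DDIT4, which fell at 40 mg/L. Capitals mark matches to motifs searched on both strands. Bases of annotated exons are left out, except for CHAC1, whose stretch lies before its RefSeq start but inside an exon of the count table, which begins further upstream.
PPP1R15A, chr19:48872171-48872391, plus strand: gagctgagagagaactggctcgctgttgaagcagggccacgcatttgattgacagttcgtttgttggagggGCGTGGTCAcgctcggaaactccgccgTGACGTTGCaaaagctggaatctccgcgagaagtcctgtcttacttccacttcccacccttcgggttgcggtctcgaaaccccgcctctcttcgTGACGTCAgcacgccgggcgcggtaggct
ATF3, chr1:212565157-212565333, plus strand: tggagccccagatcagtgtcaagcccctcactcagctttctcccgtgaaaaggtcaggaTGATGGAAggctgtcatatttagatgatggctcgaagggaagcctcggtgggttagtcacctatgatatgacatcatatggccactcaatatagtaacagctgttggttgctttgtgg
CHAC1, chr15:40953251-40953280, plus strand: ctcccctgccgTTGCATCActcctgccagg
DDIT4, chr10:72273674-72273919, plus strand: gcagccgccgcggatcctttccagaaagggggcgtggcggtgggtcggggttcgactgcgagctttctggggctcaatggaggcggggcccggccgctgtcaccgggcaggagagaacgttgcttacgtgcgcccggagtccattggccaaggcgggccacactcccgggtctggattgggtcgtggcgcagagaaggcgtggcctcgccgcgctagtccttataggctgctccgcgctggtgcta

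A gene with several starts has several windows. The core TGATGNAA of the C/EBP-ATF response element, which ATF4 and CHOP bind, was found for ATF3 and CHAC1. In ATF3 it lay in 1 of 2 windows, that of the most upstream start (bases -191 to -184 from that start). In CHAC1 it lay in the only window (-209 to -202, opposite strand). This core was present in 3.62% of 35116 windows. PPP1R15A holds a cyclic AMP response element, TGACGTCA, at -58 to -51, a motif in 1.85% of windows. The antioxidant response element core TGACNNNGC, in 13.3% of windows, matched at 2 places in PPP1R15A and at 1 in TRIB3. The AP-1 site TGANTCA, in 7.71%, matched in both DDIT3 windows and in 1 of the 3 ATF5 windows. These motifs did not overlap in the stretches shown. The endoplasmic reticulum stress element is in 0.0769% of windows and in 0 of the 9 effectors matched. ATF4, DDIT4 and SESN2 had no match to any of the 5 motifs in these windows. Of these, ATF4 and SESN2 rose in SKOV3 at 40 mg/L, while ATF5, which had a match, fell there. Whether a match goes with the direction of change was not tested. A match is a run of letters and shows no binding.

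The 2 lines were compared directly in a fit of all 18 libraries. The difference in log2 fold change, SKOV3 minus A2780, was called at 20 mg/L for 4 of 10 effectors, 2 higher and 2 lower in SKOV3, where 21.6% of all genes were called. At 40 mg/L it was called for 9 of 10, 6 higher and 3 lower, beside 29.9% of all genes. TRIB3 stood out at both doses, with a difference of 1.95 at 20 mg/L (SE 0.21, adjusted p = 1.79e-09) and 1.79 at 40 mg/L (SE 0.20, adjusted p = 1.57e-09). DDIT3 and PPP1R15A changed order with dose. Their responses at 20 mg/L were smaller in SKOV3, by -0.45 (SE 0.10, adjusted p = 0.000685) and -0.76 (SE 0.12, adjusted p = 8.57e-06). With 40 mg/L they were larger there, by 0.76 (SE 0.10, adjusted p = 4.91e-08) and 0.51 (SE 0.12, adjusted p = 0.000802).

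ATF3 had the largest difference of the 10 at 40 mg/L, 2.00 (SE 0.27, adjusted p = 1.63e-07), and 0.14 at 20 mg/L (95% interval -0.42 to 0.70). SESN2 and ATF4 responded more in SKOV3 at 40 mg/L, by 0.69 (SE 0.12, adjusted p = 2.62e-05) and 0.44 (SE 0.09, adjusted p = 7.38e-05). ATF5 differed by -0.59 at 40 mg/L (SE 0.10, adjusted p = 1.15e-05), and its -0.23 at 20 mg/L was called only without SKOV3 20 mg/L replicate 3 among the settings tried (0.0495). DDIT4 differed by 0.66 at 20 mg/L (SE 0.12, adjusted p = 3.91e-05) and by -0.31 at 40 mg/L (SE 0.12, adjusted p = 0.0395). NUPR1 differed by -0.32 at 40 mg/L (SE 0.11, adjusted p = 0.0327). CHAC1 was called at neither dose, with 95% intervals of -0.64 to 1.67 and -0.66 to 1.45.

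The 40 mg/L differences of DDIT4 and NUPR1 depended on single libraries. For DDIT4 the adjusted p was 0.1, 0.132, 0.107 and 0.118 without A2780 DMSO replicate 1, DMSO replicate 3, 40 mg/L replicate 2 and 40 mg/L replicate 3. It was 0.0538, 0.079, 0.109 and 0.0605 without SKOV3 DMSO replicate 1, DMSO replicate 3, 40 mg/L replicate 1 and 40 mg/L replicate 2. For NUPR1 it was 0.0976 and 0.19 without A2780 DMSO replicate 2 and 40 mg/L replicate 2, and 0.0757 and 0.0673 without SKOV3 DMSO replicate 3 and 40 mg/L replicate 1.

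**Figure D4:**
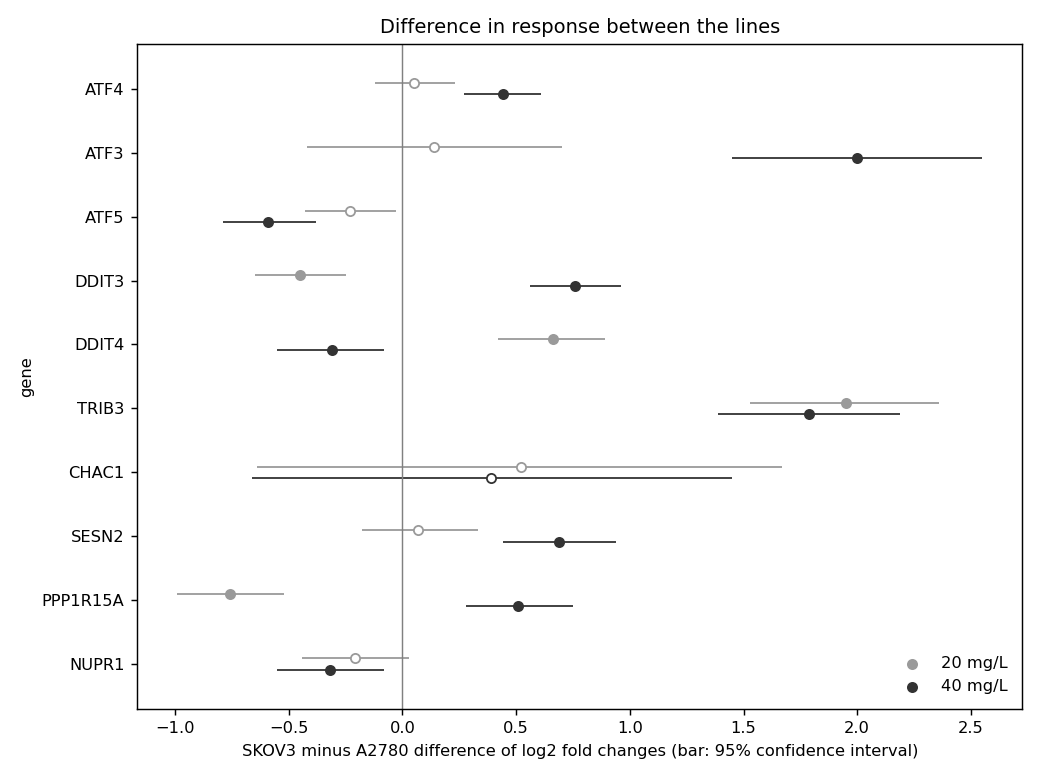
Difference between the lines in log2 fold change against DMSO, SKOV3 minus A2780 (x axis), of each effector at 20 mg/L (grey) and 40 mg/L (black), with 95% confidence intervals, filled where the adjusted p is under 0.05. TRIB3 is near 1.9 at both doses, and DDIT3, DDIT4 and PPP1R15A have opposite signs at the 2 doses.

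Under DMSO the lines already differed in all 10 effectors, 8 higher and 2 lower in SKOV3, where 78.3% of all genes were called. NUPR1 was 8.86-fold higher in SKOV3 (log2 3.15, SE 0.09, adjusted p = 6.16e-31), ATF3 7.47-fold (log2 2.90, SE 0.18, adjusted p = 3.84e-18) and DDIT4 6.3-fold (log2 2.65, SE 0.08, adjusted p = 1.60e-28). SESN2 was 4.74-fold lower (log2 -2.24, SE 0.09, adjusted p = 9.89e-25) and ATF4 1.28-fold lower (log2 -0.35, SE 0.06, adjusted p = 1.82e-06). PPP1R15A, DDIT3, TRIB3 and ATF5 were higher by log2 1.05, 0.93, 0.59 and 0.42. CHAC1 was higher by log2 1.13 (adjusted p = 0.00956), a call lost without A2780 DMSO replicate 1 (0.0616) or SKOV3 DMSO replicate 1 (0.119). ATF3 in A2780 at 40 mg/L, 2.13 ± 0.198 CPM, was still below its 5.54 ± 1.06 CPM in untreated SKOV3, and NUPR1, at 18.4 ± 2.2 against 73 ± 5.49 CPM, was too.

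Other genes of the pathway were followed in lists. Upstream, 17 genes for the eIF2 kinases, eIF2, its exchange factor eIF2B and their regulators were taken. With 40 mg/L, 4 rose and 4 fell in A2780 (median log2 -0.07), and 9 rose and 2 fell in SKOV3 (median 0.17), beside 36.9% and 52.1% of all genes called. With 20 mg/L, 3 rose and 7 fell in A2780, beside 36.9% of all genes called. In SKOV3 at 20 mg/L edgeR called 0 of 17, beside 10.1% of all genes. There 2 had an unadjusted p under 0.05 and DESeq2 called 1. EIF2AK3, the gene of the endoplasmic reticulum kinase PERK, rose at 40 mg/L by log2 0.54 (SE 0.08) in A2780 and 0.95 (SE 0.06) in SKOV3. PPP1R15B, the constitutive paralogue of PPP1R15A, rose by 0.42 (SE 0.08) and 1.10 (SE 0.07). OMA1, a mitochondrial protease that relays mitochondrial stress, rose by 0.87 (SE 0.12) in A2780 and 0.31 (SE 0.08) in SKOV3. Among those that fell at 40 mg/L in A2780 were GCN1, by -0.47 (SE 0.06), and EIF2B1, by -0.47 (SE 0.09). In SKOV3 IMPACT fell at that dose by -0.22 (SE 0.06).

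Amino acid supply genes moved differently in the 2 lines. Of 14 amino acid synthesis genes, 1 rose and 9 fell at 20 mg/L in A2780 (median log2 -0.25), while 7 rose in SKOV3 (median 0.29) and the other 7 were not called. The counts at 40 mg/L were 2 up and 5 down in A2780 (median -0.08), and 8 up and 3 down in SKOV3 (median 0.35). Of all genes, 36.9% were called at each dose in A2780, and 10.1% and 52.1% at 20 and 40 mg/L in SKOV3. The difference between the lines at 40 mg/L was called for 11 of 14, 10 of them higher in SKOV3, beside 29.9% of all genes. ASNS, asparagine synthetase, was at 11.6 ± 1.62 and 23.5 ± 1.67 CPM under DMSO and 40 mg/L in A2780 (log2 1.00, SE 0.10), and at 10.7 ± 0.787 and 29.6 ± 0.816 CPM in SKOV3 (log2 1.47, SE 0.08). CBS, which makes cystathionine from homocysteine, fell in A2780 from 88.7 ± 3.97 to 51.1 ± 0.79 CPM (log2 -0.81, SE 0.07) and in SKOV3 from 11.4 ± 0.328 to 9.1 ± 0.41 CPM (log2 -0.32, SE 0.09). CTH, the next enzyme of that route, rose in SKOV3 from 3.19 ± 0.0771 to 11.1 ± 0.472 CPM (log2 1.81, SE 0.11).

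Of 8 amino acid transporters tested, 3 rose and 1 fell at 40 mg/L in A2780 (median log2 0.07), and 7 rose in SKOV3 (median 0.95), where 17.7% and 26.4% of all genes rose. SLC7A11, the cystine importer, rose in both lines, by log2 1.74 (SE 0.10) in A2780 and 1.25 (SE 0.08) in SKOV3, as did its partner SLC3A2, by 1.01 (SE 0.07) and 1.77 (SE 0.06). SLC7A5, the leucine importer that pairs with the same partner, fell in A2780 from 56.2 ± 6.73 to 38.7 ± 3.04 CPM (log2 -0.56, SE 0.08). It rose in SKOV3 from 104 ± 16.2 to 416 ± 15.9 CPM (log2 2.01, SE 0.12), and the difference between the lines was 2.54 (SE 0.15, adjusted p = 1.54e-10). Of 13 genes for cytosolic tRNA charging and tRNA export, 6 rose and 1 fell at 40 mg/L in A2780 (median 0.10) and 12 rose in SKOV3 (median 0.40), beside the same shares of all genes. AARS, alanyl-tRNA synthetase, rose by 0.61 (SE 0.07) and 1.05 (SE 0.05).

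Most further stress targets of ATF4 and CHOP rose in both lines. Among them 12 of 18 tested rose and 2 fell at 40 mg/L in A2780 (median log2 0.48), and 14 of 19 rose and 1 fell in SKOV3 (median 0.58), where 17.7% and 26.4% of all genes rose. GDF15, a secreted stress cytokine, went from 4.12 ± 0.54 to 11.6 ± 1.44 CPM in A2780 (log2 1.47, SE 0.14) and from 1.27 ± 0.121 to 6.91 ± 1.05 CPM in SKOV3 (log2 2.45, SE 0.16). GADD45A, a growth arrest gene, rose from 34.1 ± 1.56 to 296 ± 13.6 CPM in SKOV3 (log2 3.12, SE 0.06). In A2780 it went from 28.5 ± 4.32 to 64.4 ± 2.2 CPM (log2 1.16). EIF4EBP1, a repressor of cap-dependent translation and a known ATF4 target, fell in A2780 at 40 mg/L by log2 -0.49 (SE 0.08).

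The ATF6 and XBP1 branches of the unfolded protein response, which share endoplasmic reticulum stress as a trigger, separated the doses in SKOV3. Of 18 genes, 1 rose and 1 fell at 20 mg/L (median log2 -0.01) and 16 rose at 40 mg/L (median 0.81), where 10.1% and 52.1% of all genes were called. In A2780, 9 rose and 2 fell at 20 mg/L (median 0.18) and 7 rose and 3 fell at 40 mg/L (median 0.13), beside 36.9% of all genes called at each dose. HSPA5, the main chaperone of that compartment, was at 654 ± 55.1, 582 ± 10.6 and 2227 ± 96.5 CPM in SKOV3 in order of dose, and at 946 ± 76.9, 1128 ± 128 and 1033 ± 33.3 CPM in A2780. Its response at 40 mg/L differed between the lines by log2 1.64 (SE 0.10, adjusted p = 1.85e-16). The response differed at 40 mg/L for 13 of the 18 genes, all higher in SKOV3, beside 29.9% of all genes.

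**Figure D5:**
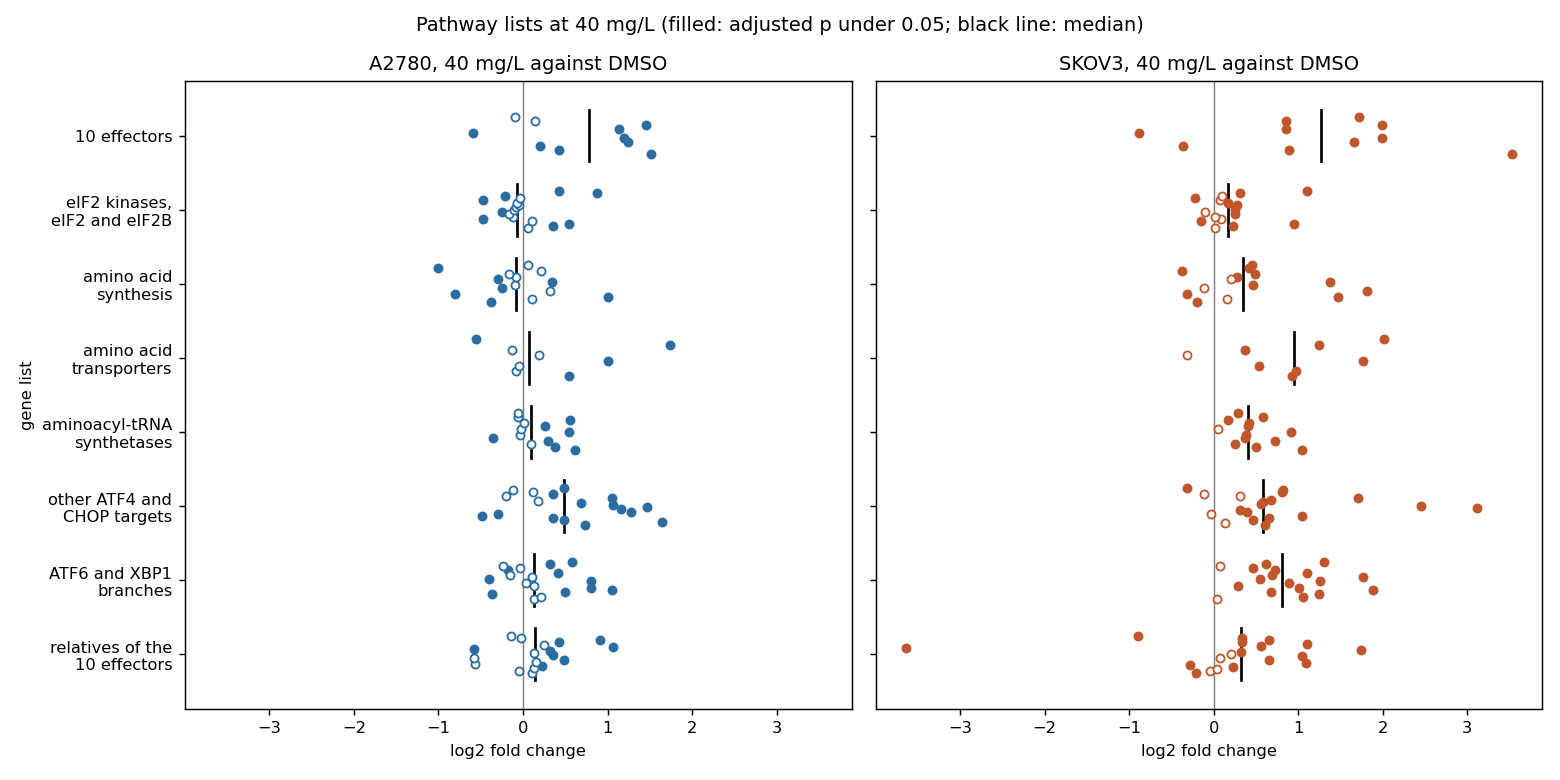
Log2 fold changes at 40 mg/L against DMSO of the 10 effectors and of 7 other lists of the pathway, A2780 on the left and SKOV3 on the right, with filled points for adjusted p under 0.05 and a black line at each list's median. The medians of the ATF6 and XBP1 branches are 0.13 in A2780 and 0.81 in SKOV3, and those of the transporters 0.07 and 0.95.

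Among family relatives of the effectors, 7 of 18 tested rose and 1 fell in A2780 at 40 mg/L (median log2 0.14), and 11 of 19 rose and 4 fell in SKOV3 (median 0.32), beside 36.9% and 52.1% of all genes called. JDP2, a relative of ATF3 that represses transcription and is also in the list of further stress targets, rose in A2780 by log2 1.06 (SE 0.09). In SKOV3 it went from 87.8 ± 3.09 CPM under DMSO to 129 ± 3.7 CPM at 40 mg/L. SESN1, a sestrin relative of SESN2, rose in A2780 by 0.91 (SE 0.08), where SESN2 had 0.14. CREB5 fell by -0.58 (SE 0.14) in A2780 and rose by 1.74 (SE 0.11) in SKOV3. DDIT4L, the relative of DDIT4, went from 2.06 ± 0.622 CPM under DMSO to 0.153 ± 0.177 CPM at 40 mg/L in SKOV3 (log2 -3.64, SE 0.39, adjusted p = 9.27e-10). The tribbles relative TRIB2 fell there by -0.89 (SE 0.07), where TRIB3 rose.

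The genes whose 4 log2 changes against DMSO lay nearest to each effector's were sought among 11237 genes with a symbol and at least 5 CPM on average, by the root mean square difference. This is a description over 4 comparisons, which share DMSO libraries within a line. DDIT3 and PPP1R15A were among each other's 3 nearest, at 0.17, and SQSTM1, the autophagy receptor p62, was near both, at 0.17 and 0.27. GCLC, which makes the precursor of glutathione, was nearest to DDIT3, at 0.15, and GSR, glutathione reductase, to NUPR1, at 0.14. GADD45A was nearest to ATF3 (0.34), SLC7A5 to TRIB3 (0.28), PDK4 and then ASNS to CHAC1 (0.34 and 0.35), and ERN1, the gene of the endoplasmic reticulum sensor IRE1, to SESN2 (0.06). MCOLN1 was nearest to ATF4 (0.05), BCAS3 to DDIT4 (0.08) and FAM96A to ATF5 (0.01).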

How the data were processed

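Sequencing covered 18 libraries made from total RNA; per the labels, the kit was a stranded one for mRNA. The submitters' processing notes name Trimmomatic 0.36 and GRCh38. The authors deposited whole-number read counts per gene, unnormalised, and per the file headers the table is laid out as featureCounts writes it. Aligner, counter, annotation release and the strand setting used were not given in the sources used here. Small counts were 74.3% to 77.0% even, so both mates of a pair appear to have been counted. Of the identifiers, 28 had become dates and stayed in the totals.

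Each line was fitted alone (20593 and 21936 genes after filterByExpr, 6 residual degrees of freedom), and all 18 libraries together (23742 genes, 12 residual degrees of freedom) for line differences. Tests were edgeR 4.0.16 quasi-likelihood F tests with TMM scaling and robust dispersions in R 4.3.3, two-sided, Benjamini-Hochberg adjusted over all genes tested. The code was tested on simulated data. SE came from the F statistic. Levels are CPM of those counts, computed here. Alternatives were RLE size factors, DESeq2 1.42.0, no filter, only the groups compared, a replicate block, halved counts, no mitochondrial genes and leaving out each library. One more, leaving out both A2780 libraries of lowest mitochondrial share, was chosen after seeing the data. The effectors, lists and naming rule were chosen with earlier results of these data known. The rule named all 10 effectors, up to 3 called genes per direction of each other list, 3 nearest genes per effector and overlapping genes. Depth limits counting error only, and without molecular identifiers reads may repeat a molecule.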

Additional observations from a re-analysis of the deposited data

Results flagged for a closer look

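The response of several effectors differed between the lines by edgeR's interaction contrast, given as log2 differences, SKOV3 minus A2780, with Benjamini-Hochberg adjusted p under 0.05. At 20 mg/L these were TRIB3 (1.95), DDIT4 (0.66), DDIT3 (-0.45) and PPP1R15A (-0.76). The first of them, TRIB3, was lower than DMSO in every A2780 library at that dose and higher in every SKOV3 library. At 40 mg/L the differences above 0 were ATF3 (2.00), TRIB3 (1.79), DDIT3 (0.76), SESN2 (0.69), PPP1R15A (0.51) and ATF4 (0.44). Those below 0 were ATF5 (-0.59), NUPR1 (-0.32) and DDIT4 (-0.31). DDIT3 and PPP1R15A thus had a smaller response in SKOV3 at 20 mg/L and a larger one at 40 mg/L. For DDIT4 the signed difference also changed sign between the doses, with log2 changes of -0.51 and -0.59 in A2780 and 0.16 and -0.88 in SKOV3 at 20 and 40 mg/L. Line and culture medium cannot be told apart.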

How the results depend on the processing

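Of 1346 values of single effectors under the alternatives, 1289 kept their direction and their side of the threshold, 39 lost a call, 8 gained one and 10 changed sign. All 10 that changed sign were uncalled. They were CHAC1 at 20 mg/L in A2780 without DMSO replicate 2 (log2 0.02). In the A2780 step from 20 to 40 mg/L they were SESN2 without 20 mg/L replicate 2 (0.04), ATF5 and SESN2 without 40 mg/L replicate 2 (-0.03 and 0.02), and DDIT4 and SESN2 without both libraries of lowest mitochondrial share (0.01 and 0.00046). In the line difference at 20 mg/L they were ATF3 without A2780 DMSO replicate 1 (-0.10) or SKOV3 DMSO replicate 3 (-0.02), ATF4 without A2780 20 mg/L replicate 3 (-0.0007) and SESN2 without SKOV3 20 mg/L replicate 1 (-0.02). With 1 library left out, the values ran from -0.38 to 0.02 for that CHAC1 value, from -0.08 to 0.04 for SESN2 and -0.03 to 0.10 for ATF5 in the A2780 step, and from -0.10 to 0.31 for ATF3, -0.0007 to 0.11 for ATF4 and -0.02 to 0.13 for SESN2 in the line difference.

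Only the A2780 step from 20 to 40 mg/L had a count of called effectors that moved by over 1.5 times, from 5 to between 1 and 6 when 1 library was left out. It was 2 without 20 mg/L replicate 1, 1 without 20 mg/L replicate 3, 3 without 40 mg/L replicate 1 and 1 without 40 mg/L replicate 2. Over all genes, 2157 of 20990 tested, 1583 of 21030, 2520 of 21047 and 1798 of 21044 were called in those fits, in that order. With all libraries 2999 of 20593 were called. What caused these shifts was not tested. Leaving out 1 library gave 6 to 8 at 20 mg/L and 6 to 8 at 40 mg/L against DMSO in A2780. Of all genes, 6587 to 6931 and 6458 to 6927 were called there, against 7604 and 7595 with all libraries. In SKOV3 the counts stayed at 6 at 20 mg/L, 10 at 40 mg/L and 10 for the step. Of all genes, 1443 to 1741, 10360 to 11197 and 9259 to 10192 were called there, against 2217, 11425 and 10394. The line differences gave 4 to 5 and 7 to 9, and the DMSO baseline 9 to 10. Beside these, 4485 to 4901, 6389 to 6895 and 18075 to 18327 of all genes were called, against 5121, 7101 and 18600. DESeq2 called 7 effectors at 40 mg/L in A2780, beside 7003 of 20578 genes, and otherwise as many effectors as edgeR. In the A2780 step from 20 to 40 mg/L they were not the same ones, as DESeq2 called ATF4 (0.0154) and not CHAC1. That CHAC1 value had no adjusted p in DESeq2 and is not among the values counted above. CHAC1 did not pass the filter on low counts in A2780 with halved counts.

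Libraries with the same replicate number did not deviate together over all genes (r from -0.06 to 0.03 in A2780 and -0.02 to 0.05 in SKOV3, 0 of 9 pairs over 0.1 in each). Whether such libraries shared a culture or a run cannot be told from these values. With replicate number as a block 6, 7 and 5 effectors were called in the 3 A2780 comparisons, 6, 10 and 10 in SKOV3, 4 and 9 in the line differences and 10 in the baseline. In the same order, 7255, 7311 and 2693 of all genes were called in A2780, and 2537, 11622 and 10638 in SKOV3. For the line differences it was 5024 and 7031, and for the baseline 18585. CHAC1, with as few as 6 counts in a library, is limited by depth.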
